A study of Mus musculus with 6 samples.

Results

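The replication-dependent histone genes are the clustered genes that supply the histones packed onto newly copied DNA, and 31 of them were measured here among 19943 genes tested. A gene counted as a member when its symbol, or an older symbol of the same gene in the RefSeq gene table, begins with Hist1h, Hist2h, Hist3h or Hist4h, and when the array carried at least 1 probe set annotated with that gene symbol alone. The platform annotation writes current symbols, of which 0 match the older pattern directly, so members were found through their Entrez gene identifiers. Of 70 genes with such a name in the RefSeq table, 31 had a probe set of their own, 38 were named only by probe sets shared among several genes, and 1 was in no listed probe set. Each member rested on 1 probe set. They comprised 5 genes of the linker histone H1, 5 of H2A, 11 of H2B (1 of them, H2bu1-ps, a transcribed pseudogene), 3 of H3 and 7 of H4. By cluster, 23 belonged to Hist1 on chromosome 13, 4 to Hist2 on chromosome 3, 3 to Hist3 on chromosome 11 and 1 to Hist4 on chromosome 6.

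Core histones H2A, H2B, H3 and H4 form the protein spool around which DNA is wound, and H1 binds the linker between spools. Their clustered genes have no introns, and their mRNAs end in a stem-loop bound by the protein SLBP rather than in a poly(A) tail, which ties their abundance to S phase. In dividing cells these mRNAs accumulate while DNA is copied and are degraded when that stops. Histone variants such as H3.3 and H2A.Z come from separate genes with polyadenylated mRNAs that are made throughout the cell cycle.

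Total RNA of mouse natural killer (NK) cells, cytotoxic lymphocytes of the innate immune system, was hybridised to 6 Affymetrix arrays. The IL-18 generated cells (3 arrays) came from overnight culture with 300 IU IL-2 and 25 ng/ml IL-18 and were sorted alive as NK1.1 positive and CD3 negative cells that lacked CD11b and carried c-kit. The unstimulated cells (3 arrays) were sorted on NK1.1 and CD3 in the same way, but as CD11b positive and c-kit negative. Stimulus and sort gate therefore changed together and cannot be told apart. The labels attach the same culture text, IL-18 included, to the unstimulated samples, so whether those were cultured or received IL-2 is not settled, and they name no strain, genotype or age. The series describes the 3 preparations of each kind as independent, and the few arrays limit the precision of every p-value given.

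Values were taken to be on a log2 scale, a base that the labels do not state. Each probe set is expressed relative to its own median over the 6 arrays. The values show differences between arrays and no expression level, so a gene near 0 in all arrays may be undetected. The labelled cell type could not be checked by marker levels. The genes behind the differing gates moved with them: Kit (c-kit) changed by 2.79 and Itgam (CD11b) by -5.32, which is no finding, since the gates chose on them. The centring also mirrors the middle pair of values around 0, so that the highest IL-18 array and the lowest unstimulated array of a gene often carry the same number with opposite signs. All 10 NK cell markers were lower in the IL-18 generated cells (median change -0.93), where 16.7% of all genes tested were called lower. In RNA from sorted populations, fewer cells of a type and less RNA per cell cannot be told apart.

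The promoter windows of the member with the largest decrease in each class are shown because the members moved together and because histone classes differ in known promoter elements. Each runs from 250 bases before to 50 bases from the gene's start, as listed by RefSeq on GRCm38.p6, and is written 5′ to 3′ on the gene's strand. Capitals mark matches to 4 motifs on either strand: the TATA box (TATAAA), the CCAAT box (CCAAT or ATTGG), the octamer bound by OCT-1 and known from H2B promoters (ATGCAAAT or its reverse complement ATTTGCAT), and the H1 box (AAACACA). H1f2 lies at chr13:23738557-23738856 (+ strand), H2ac4 at chr13:23750838-23751137 (+), H2bc3 at chr13:23746484-23746783 (+), H3c15 at chr3:96239078-96239377 (-) and H4c6 at chr13:23551619-23551918 (-).
H1f2 promoter: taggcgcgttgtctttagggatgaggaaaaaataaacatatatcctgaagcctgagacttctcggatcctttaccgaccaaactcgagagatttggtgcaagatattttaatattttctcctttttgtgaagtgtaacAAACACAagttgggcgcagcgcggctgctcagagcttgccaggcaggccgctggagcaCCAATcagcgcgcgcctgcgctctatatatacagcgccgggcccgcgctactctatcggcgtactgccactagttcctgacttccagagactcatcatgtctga
H2ac4 promoter: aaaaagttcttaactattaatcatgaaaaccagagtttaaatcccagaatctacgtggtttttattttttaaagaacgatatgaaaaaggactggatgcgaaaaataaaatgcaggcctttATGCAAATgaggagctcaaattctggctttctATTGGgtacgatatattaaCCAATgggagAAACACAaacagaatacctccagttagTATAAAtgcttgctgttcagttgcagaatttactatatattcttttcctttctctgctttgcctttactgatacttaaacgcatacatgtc
H2bc3 promoter: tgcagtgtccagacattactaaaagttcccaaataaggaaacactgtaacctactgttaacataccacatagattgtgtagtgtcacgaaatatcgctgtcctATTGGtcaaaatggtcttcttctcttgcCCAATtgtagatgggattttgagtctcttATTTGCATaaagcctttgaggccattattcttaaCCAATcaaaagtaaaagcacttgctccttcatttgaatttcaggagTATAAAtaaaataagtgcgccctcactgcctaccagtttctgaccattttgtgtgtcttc
H3c15 promoter: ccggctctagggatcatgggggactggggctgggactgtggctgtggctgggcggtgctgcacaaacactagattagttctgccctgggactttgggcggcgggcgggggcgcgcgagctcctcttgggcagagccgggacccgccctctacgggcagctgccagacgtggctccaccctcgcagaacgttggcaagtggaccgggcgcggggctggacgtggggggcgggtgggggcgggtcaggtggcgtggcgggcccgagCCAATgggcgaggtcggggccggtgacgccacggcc
H4c6 promoter: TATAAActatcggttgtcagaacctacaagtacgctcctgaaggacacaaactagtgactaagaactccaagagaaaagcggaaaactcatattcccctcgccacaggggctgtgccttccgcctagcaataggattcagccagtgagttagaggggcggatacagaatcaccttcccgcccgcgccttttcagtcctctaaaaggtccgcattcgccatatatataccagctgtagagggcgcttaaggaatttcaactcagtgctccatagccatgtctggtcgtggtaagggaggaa

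Windows were available for 26 of the 31 members. A CCAAT box was found in 22 of the 26 (84.6%), against 37.4% of all 32851 promoter windows of the same length, and it was in every H1, H2A, H2B and H3 window but in 2 of 6 H4 windows. The octamer was found in 9 of 26 (34.6%, against 1.7% of all windows), namely in 4 of 5 H2A and 5 of 8 H2B windows, and in 0 of the H1, H3 and H4 windows. A TATA box was found in 16 of 26 (61.5%, against 13.6%), and an H1 box in 8 of 26 (30.8%, against 7.2%), including 4 of 5 H1 windows. Some windows are not independent, because H2ac1 and H2bc1 are divergent neighbours whose windows share 220 bases, and H2ac8 and H2bc8 likewise share 279 bases. Matches were counted at any position in a window. The TATA match of H4c6 begins 250 bases before the gene's start, and that of H2bc3 10 bases before it. The CCAAT match of H3c15 begins at base 265 of its window, inside the gene. All matches describe the letters in the windows and were not tested for binding or for a relation to the changes below.

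In the IL-18 generated cells the histone cluster genes were lower as a group and none was called higher. Of the 31 members, 24 fell (77.4%), 0 rose and 7 did not pass, where 16.7% of all genes tested were called lower and 19.7% higher (limma, Benjamini-Hochberg adjusted p below 0.05 over all genes). The median change was -0.40 on the log2 scale, against -0.06 over all genes tested, and 30 of 31 changes were negative, against 62.3% of all genes. For 26 members every IL-18 array lay below every unstimulated array, as it did for 25.7% of all genes tested. The decreases were moderate: they ranged to -1.16, and 1 member, H2bc3, fell by 2-fold or more. Near-identical copies may share probes, so the members are not independent measurements.

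**Figure D1:**
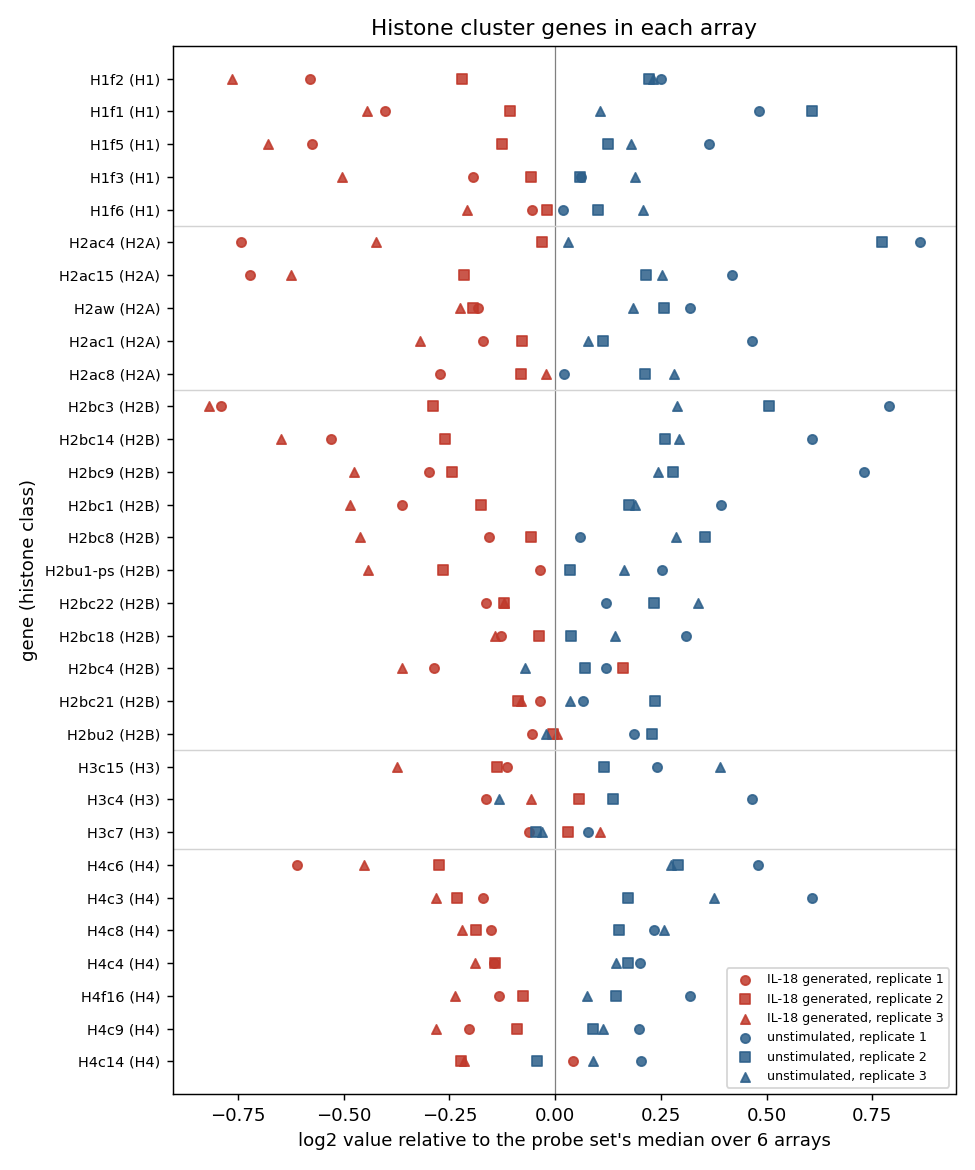
Log2 value of each of the 31 histone cluster genes (rows, grouped by histone class and ordered by change) in each array, relative to the gene's median over the 6 arrays; red marks are IL-18 generated and blue marks unstimulated arrays, with one shape per replicate number. Red marks lie left of all blue marks for 26 genes, and the marks interleave for H2bc4, H2bu2, H3c4, H3c7 and H4c14.

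Among the linker histones, 4 of 5 fell, with a median change of -0.68, the lowest of the 5 class medians. H1f2 (Hist1h1c), which encodes the somatic subtype H1.2, had log2 values of -0.58, -0.22 and -0.76 in the IL-18 arrays, against 0.25, 0.22 and 0.23 in the unstimulated arrays. The unstimulated arrays lay close together and the IL-18 arrays spread widely below them. The change was -0.76 ± 0.12 (the log2 difference with its SE, 3 arrays in each group, here and in what follows), with a limma adjusted p of 0.000603. H1f1 (Hist1h1a, subtype H1.1) had -0.40, -0.11 and -0.44, against 0.48, 0.61 and 0.11 in the unstimulated arrays, a change of -0.72 ± 0.13 (adjusted p 0.00169). H1f5 (Hist1h1b, subtype H1.5) had -0.57, -0.12 and -0.68, against 0.36, 0.12 and 0.18, a change of -0.68 ± 0.14 (adjusted p 0.00234). In all 3 genes IL-18 replicate 2 was the highest of its group. H1f3 (Hist1h1d, subtype H1.3) fell with -0.35 ± 0.11 (adjusted p 0.0292), a call that ended in 3 fits with 1 array left out. Its change was -0.23 without IL-18 replicate 3 (adjusted p 0.0989), -0.38 without unstimulated replicate 1 (adjusted p 0.0618) and -0.31 without unstimulated replicate 3 (adjusted p 0.0993).

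All 5 H2A members fell, with a median of -0.45. H2ac4 (Hist1h2ab) had -0.74, -0.03 and -0.42 in the IL-18 arrays, against 0.86, 0.77 and 0.03 in the unstimulated arrays. Its groups are separated by 0.06, because IL-18 replicate 2 and unstimulated replicate 3 are almost equal, and its SE is the largest of the members: -0.95 ± 0.22 (adjusted p 0.00621). H2ac15 (Hist1h2ak) had -0.72, -0.21 and -0.62, against 0.42, 0.21 and 0.25, a change of -0.81 ± 0.13 (adjusted p 0.000461). H2aw (Hist3h2a), the H2A gene of the small cluster on chromosome 11, had -0.18, -0.19 and -0.23, against 0.32, 0.26 and 0.18. Both of its groups were tight, and the change of -0.45 ± 0.07 passed at an adjusted p of 0.00062. H2ac8 (Hist1h2ae) was the H2A gene with the smallest decrease, -0.30 ± 0.10 (adjusted p 0.0347), and its call ended with both other scalings of the arrays and without any one of 4 arrays (adjusted p 0.0605 to 0.133 among these fits).

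Of the 11 H2B members, 8 fell and 0 rose (median change -0.40). H2bc3 (Hist1h2bb), the largest decrease of all, had -0.79, -0.29 and -0.82 in the IL-18 arrays, against 0.79, 0.51 and 0.29 in the unstimulated arrays. The groups were 0.58 apart at their nearest arrays, and the change was -1.16 ± 0.16, or 2.24-fold lower (adjusted p 0.000185). H2bc14 (Hist1h2bm) had -0.53, -0.26 and -0.65, against 0.61, 0.26 and 0.29, a change of -0.87 ± 0.12 (adjusted p 0.000236). H2bc9 (Hist1h2bh) had -0.30, -0.24 and -0.48, against 0.73, 0.28 and 0.24, a change of -0.76 ± 0.13 (adjusted p 0.000845). Unstimulated replicate 1 was the highest array for all 3 genes. The other H2B genes that fell, besides the germ cell gene described below, were H2bc8, H2bu1-ps, H2bc22 and H2bc18, with changes from -0.46 to -0.27. H2bc4, H2bc21 and H2bu2 did not pass, with changes of -0.20 ± 0.13, -0.18 ± 0.08 and -0.15 ± 0.08 (adjusted p 0.25, 0.108 and 0.199), though H2bc4 passed without IL-18 replicate 2 (-0.36, adjusted p 0.0171).

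Of the 3 H3 members, H3c15 (Hist2h3c2), an H3.2 gene of the chromosome 3 cluster, fell. It had -0.11, -0.14 and -0.37 in the IL-18 arrays, against 0.24, 0.11 and 0.39 in the unstimulated arrays, a change of -0.46 ± 0.10 (adjusted p 0.00428). H3c4 (Hist1h3d) had a change of -0.21 ± 0.13 with overlapping groups and did not pass (adjusted p 0.252), though it passed without unstimulated replicate 3 (-0.36, adjusted p 0.0462). H3c7 (Hist1h3f) had the one positive change of the 31: its values were -0.06, 0.03 and 0.11 in the IL-18 arrays, against 0.08, -0.05 and -0.03 in the unstimulated arrays. The arrays interleaved within a narrow range, with a change of 0.03 ± 0.08 (adjusted p 0.826) that turned to -0.01 without IL-18 replicate 3.

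Of the 7 H4 members, 6 fell, with a median of -0.33. H4c6 (Hist1h4f) had -0.61, -0.27 and -0.45 in the IL-18 arrays, against 0.48, 0.29 and 0.27 in the unstimulated arrays. Its groups were 0.55 apart at their nearest arrays, and the change was -0.79 ± 0.10 (adjusted p 0.000117), the lowest adjusted p of the members. H4c3 (Hist1h4c) had -0.17, -0.23 and -0.28, against 0.61, 0.17 and 0.37, a change of -0.61 ± 0.11 (adjusted p 0.00104). H4c8 (Hist1h4h) had -0.15, -0.19 and -0.22, against 0.23, 0.15 and 0.26, a change of -0.40 ± 0.07 (adjusted p 0.00136). The spread within either group was small for H4c8 beside the gap of 0.30 between them. H4c4, H4f16 and H4c9 fell with -0.33 each, and H4c14, with -0.21 ± 0.10 and overlapping groups, did not pass (adjusted p 0.118), though it passed without IL-18 replicate 1 (-0.30, adjusted p 0.0442). H4f16 is the single gene of the Hist4 cluster.

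**Figure D2:**
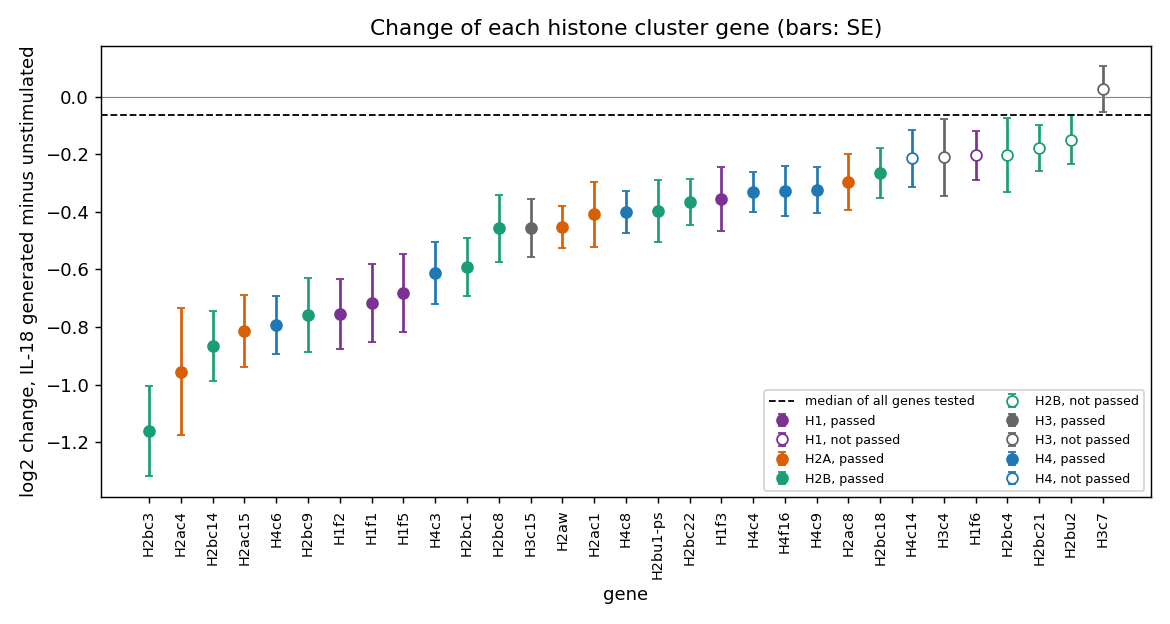
Log2 change (IL-18 generated minus unstimulated, vertical axis) of each histone cluster gene, ordered from the largest decrease; bars are standard errors from limma, filled marks passed at an adjusted p below 0.05, colours give the histone class and the dashed line is the median over all genes tested, -0.06. The 24 filled marks run from -1.16 to -0.27, and 1 mark, H3c7, lies above 0.

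Members of the clusters that are best known from male germ cells were listed separately. H2bc1 (Hist1h2ba, the testis histone TH2B) had -0.36, -0.17 and -0.48 in the IL-18 arrays, against 0.39, 0.17 and 0.19 in the unstimulated arrays, a change of -0.59 ± 0.10 (adjusted p 0.000816). H2ac1 (Hist1h2aa, TH2A), its divergent neighbour, had -0.17, -0.08 and -0.32, against 0.46, 0.11 and 0.08, a change of -0.41 ± 0.11 (adjusted p 0.0159). H1f6 (Hist1h1t, the testis linker H1t) had -0.06, -0.02 and -0.21, against 0.02, 0.10 and 0.21, and did not pass (-0.20 ± 0.09, adjusted p 0.0885). The groups of all 3 did not overlap, with the IL-18 arrays lower, as was so for 25.7% of all genes tested. H2ac1 lost its call without IL-18 replicate 3 (-0.34, adjusted p 0.0623) and without unstimulated replicate 1 (-0.28, adjusted p 0.05). Coding sequences of H2A and of H2B copies are alike enough that these probe sets may also read somatic copies, which was not tested.

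Probe sets that name several genes covered 38 of the cluster genes that had none of their own. They also named 19 of the 31 members, so they partly read the same members again. In the fit that added the 24 whose symbols are all cluster genes, 23 were lower and 1 did not pass. The total was 47 of 55 features, where 16.7% of all genes tested were called lower in the main fit. The 10 probe sets that name 12 H3 genes had median log2 values of -0.49, -0.19 and -0.42 in the IL-18 arrays, against 0.30, 0.19 and 0.23 in the unstimulated arrays, and changes of -0.62 to -0.59. The 7 that name 14 or 15 H2B genes had changes of -0.78 to -0.75, and the 5 that name 11 H4 genes changes of -0.37 to -0.34. Within an array, probe sets with the same number of symbols in a class differed by at most 0.06, so they were read as 1 pooled measurement of a class and not as several genes. The pooled H3 signal fell although H3c4 and H3c7 by themselves did not pass (highest limma adjusted p of the 10 probe sets 0.000596). The probe set shared by H2bc6 and H1f4 was the one that did not pass (-0.20 ± 0.09, adjusted p 0.102). A further 2, whose symbols also include the H2A variant gene H2ax, had changes of -0.54 and -0.52, and 1 that also names Trim17 had -0.43. The groups of these 3 did not overlap, with the IL-18 arrays lower, as was so for 25.7% of all genes tested. The 3 probe sets were not tested.

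By position, 19 of 23 members of Hist1 fell (median -0.46), 2 of 4 of Hist2 (median -0.24) and 2 of 3 of Hist3 (median -0.40), besides H4f16 of Hist4. The share called lower over all genes tested was 16.7%. No difference between classes or between clusters was tested, since copies share sequence and members are not replicates.

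The arrays of a group were not alike for these genes. Averaged over the 31 members, the log2 values were -0.27, -0.12 and -0.34 in IL-18 replicates 1, 2 and 3, against 0.32, 0.20 and 0.17 in unstimulated replicates 1, 2 and 3. IL-18 replicate 2 was the highest of its group for 21 members and IL-18 replicate 3 the lowest for 21, while unstimulated replicate 1 was the highest of its group for 21. The median SD over members was 0.13 among IL-18 arrays and 0.12 among unstimulated arrays, against 0.08 and 0.11 over all genes tested. Without IL-18 replicate 3 or without unstimulated replicate 1 the number of members that fell was 19, and 18 members were lower in all 15 other fits. The 6 that lost the call in at least 1 fit were H1f3, H2ac1, H2ac8, H2bc18, H2bu1-ps and H4f16.

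The list of genes that regulate and process histone mRNAs did not fall as a group, though many of its genes also serve other mRNAs. Of 19 measured, 9 rose (47.4%, against 19.7% of all genes tested) and 1 fell (5.3%, against 16.7%). Another 9 missed the threshold, and the median change was 0.26. General mRNA factors, such as the cap-binding genes Ncbp1 and Ncbp2, were among the 9 that rose. Genes known mainly from histone mRNAs did not pass for the most part. Casp8ap2, Hinfp, Lsm10 and Lsm11, named after their values were seen, had changes of 0.14, 0.18, 0.20 and 0.05 and did not pass. Slbp, whose protein binds the stem-loop, had -0.02, 0.09 and 0.01 in the IL-18 arrays, against -0.03, 0.04 and -0.11 in the unstimulated arrays. The arrays interleaved, with a change of 0.06 ± 0.08 (adjusted p 0.594). Npat, the coactivator of histone gene transcription, had -0.01, 0.05 and 0.20, against -0.36, 0.01 and -0.28, with overlapping groups, and did not pass (0.29 ± 0.11, adjusted p 0.0562). Eri1, an exonuclease that trims and degrades histone mRNA ends, rose by 0.84 ± 0.09, with 0.51, 0.33 and 0.39 in the IL-18 arrays, against -0.56, -0.33 and -0.39 in the unstimulated arrays (adjusted p 3.28e-05). Cpsf2 (CPSF100), a subunit of the cleavage complex, rose by 0.72 ± 0.10, and Snrpd3, which encodes an Sm protein of the U7 and spliceosomal particles, by 0.64 ± 0.07. Zfp473, whose human counterpart binds the U7 particle, was the 1 gene that fell, with -0.45 ± 0.09 (adjusted p 0.00323).

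Histone chaperones, which escort histones to the nucleus and onto DNA, were mostly higher. Of 14 measured, 10 rose (71.4%, against 19.7% of all genes tested) and 1 fell (7.1%, against 16.7%). Another 3 missed the threshold, and the median change was 0.49. These 3, named after their values were seen, were Asf1b (-0.27), Rbbp4 (0.19) and Supt16 (0.24). Ipo4, an importin that carries H3 and H4 into the nucleus, rose by 2.17 ± 0.08, with 1.03 to 1.23 in the IL-18 arrays, against -1.09 to -1.03 in the unstimulated arrays (adjusted p 3.23e-08). Nap1l1, a chaperone of H2A and H2B, rose by 1.01 ± 0.09 and Asf1a, a chaperone of H3 and H4, by 0.83 ± 0.10. Chaf1a and Chaf1b, which encode subunits of the chromatin assembly factor CAF-1, rose by 0.56 ± 0.10 and 0.58 ± 0.10 and were named after their values were seen. Daxx, a chaperone of the variant H3.3, fell with -0.38 ± 0.09 (adjusted p 0.00664).

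Among 12 replication-independent histone variant genes, 5 fell (41.7%, against 16.7% of all genes tested) and 0 rose (median change -0.23). Cenpa, the centromeric H3 variant, had -0.49, -0.49 and -0.21 in the IL-18 arrays, against 0.21, 0.24 and 0.26 in the unstimulated arrays, a change of -0.63 ± 0.09 (adjusted p 0.000295). The H2A.Z genes H2az2 and H2az1 fell with -0.57 ± 0.08 and -0.41 ± 0.08. The other 2 that fell were H3f3a, a gene of H3.3, with -0.38 ± 0.07 and the linker variant H1f10 with -0.37 ± 0.08, both named after their values were seen.

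**Figure D3:**
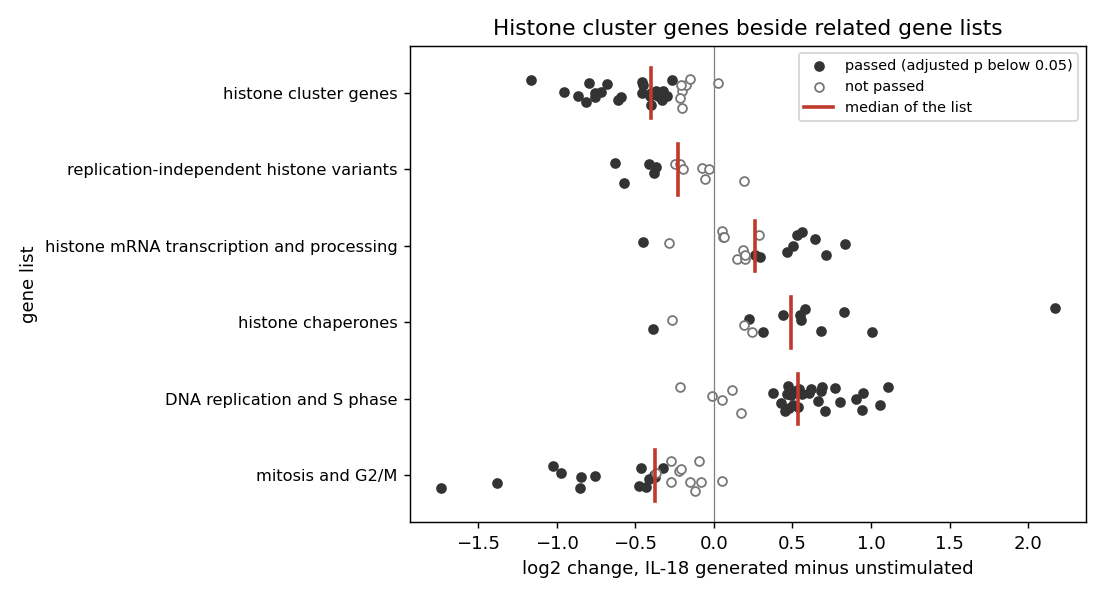
Log2 change (IL-18 generated minus unstimulated) of every measured gene in the histone clusters and in 5 related lists; each mark is a gene, filled where it passed at an adjusted p below 0.05, and the red line is the list's median. The medians are -0.40 for the histone clusters, -0.23 for the variants, 0.26 for mRNA processing, 0.49 for chaperones, 0.53 for DNA replication and -0.38 for mitosis.

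Genes of DNA copying and of mitosis were set beside the histones because cluster histone mRNAs are known from S phase. The S phase list held 31 measured genes, mostly of DNA copying, with the S phase entry regulators Ccne1, Ccne2 and Cdk2 among them. Of these, 26 rose (83.9%, against 19.7% of all genes tested) and 0 fell (median change 0.53). Prim1 (primase) rose by 1.11 ± 0.09, Dtl, which takes part in replication-coupled protein turnover, by 1.05 ± 0.12 and Tyms (thymidylate synthase) by 0.95 ± 0.11. The 5 that did not pass, named after their values were seen, were Cdt1 (-0.21), Rpa2 (-0.01), Pcna (0.05), Rrm2 (0.12) and Cdk2 (0.17). The mitosis list held 24 measured genes, of which 14 fell (58.3%, against 16.7% of all genes tested) and 0 rose (median change -0.38). Ccnb2 (cyclin B2) fell with -1.74 ± 0.15, the proliferation marker Mki67 with -1.38 ± 0.25 and the spindle gene Nusap1 with -1.02 ± 0.17. The sign of the histone change was thus that of the mitosis list and opposite to that of the replication list. List means in IL-18 replicates 1, 2 and 3 were 0.16, 0.38 and 0.36 for replication, and -0.63, -0.03 and -0.34 for mitosis. Those of unstimulated replicates 1, 2 and 3 were -0.25, -0.18 and -0.30 for replication, and 0.25, 0.10 and 0.17 for mitosis. IL-18 replicate 2, the highest of its group in the histone mean, was so in the mitosis mean as well and was the highest IL-18 array in the replication mean.

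**Figure D4:**
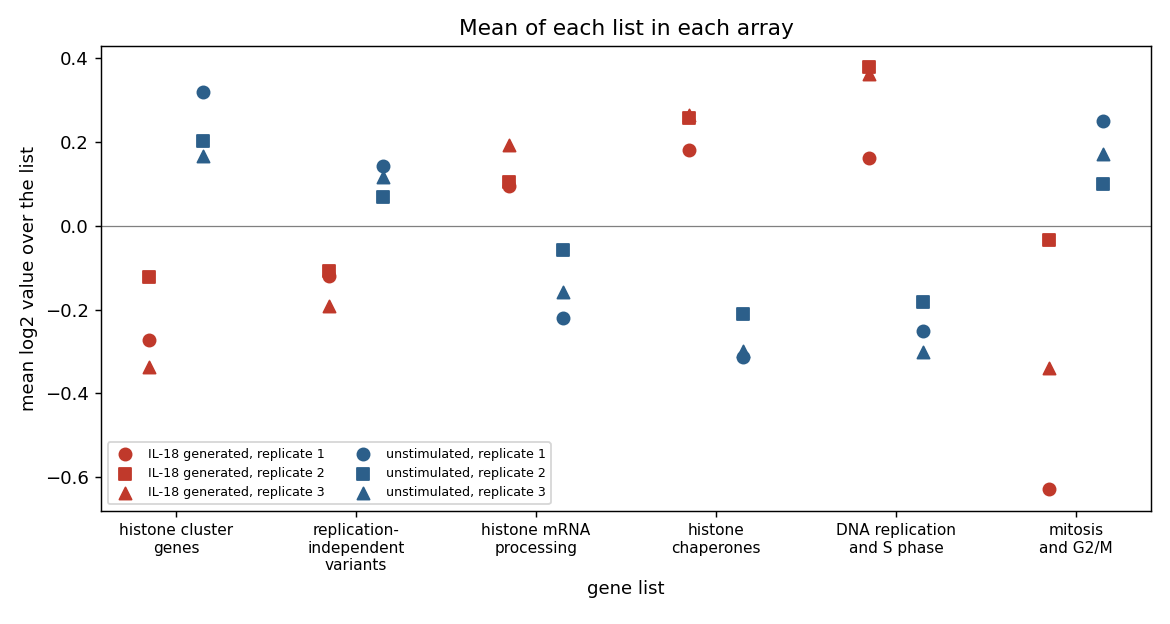
Mean log2 value over the genes of each list (vertical axis) in each array, with IL-18 generated arrays in red at the left and unstimulated arrays in blue at the right of each pair, and one shape per replicate number. Histone clusters, variants and mitosis genes are lower in all 3 IL-18 arrays, with histone means of -0.34 to -0.12 against 0.17 to 0.32, while processing, chaperone and replication genes are higher.

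Markers of other cells moved in the same arrays, and monocytes and neutrophils carry CD11b, on which the gates differed. All 11 monocyte and macrophage markers fell (median -3.14), with list means of -1.66 to -1.60 in the IL-18 arrays and 1.53 to 2.05 in the unstimulated arrays. Lyz2 (lysozyme) fell with -7.16, Cybb with -6.15 and Ifitm6 with -4.47. All 10 neutrophil markers fell too (median -2.99, list means of -1.31 to -1.02 against 1.19 to 2.48), with Ngp at -5.66, Cxcr2 at -3.65 and S100a9 at -3.36. Of 8 B cell markers, 7 fell (median -0.52, list means of -0.31 to -0.16 against 0.10 to 0.53), among them Cd22 with -1.18, Cd79b with -0.93 and Fcrla with -0.66. Of 10 T cell markers, 3 rose (30.0%), the CD3 chain genes Cd3d by 1.11, Cd3e by 1.26 and Cd3g by 1.60. Of 5 erythroid markers 1 fell (20.0%), Slc4a1 with -0.32. Over all genes tested, 19.7% were called higher and 16.7% lower, so the erythroid share lies near that of all genes. The order of the arrays differed between these lists. Among the unstimulated arrays, replicate 1 had the highest B cell and erythroid means, replicate 3 the highest monocyte mean and replicate 2 the highest neutrophil mean. Unstimulated replicate 1 was also the highest of its group in the histone, variant and mitosis means. The part of B cells or of any other marked cell type in the histone result was not tested. Gzma, Itga2 and Klrb1c had the largest decreases of the NK markers, -4.10, -2.21 and -2.03.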

How the data were processed

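The deposited table holds the authors' processed log values for 28815 probe sets on 6 arrays. Which log base, summarization and normalization were used is stated in no label or file header. The log2 scale was read from the values, which run from -4.43 to 5.48, with probe set medians within 5e-07 of 0. RNA was column-purified and biotin-labelled, per the labels' protocols. From these values, the 21788 probe sets with 1 gene symbol were averaged to 19943 genes. Tests used lmFit and eBayes without trend or covariates (limma version 3.58.1, R version 4.3.3), with Benjamini-Hochberg adjustment over all genes. Array medians lay between -0.025 and 0.039, and no further scaling was applied. Tables and figures were made in Python 3.11.15 with pandas 2.3.3, numpy 2.4.6 and matplotlib 3.10.9.

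Data were simulated for this contrast and 19943 genes, with 200 of them changed. Of the genes changed by 0.5, 55.2% were recovered, and of those changed by 1, 94.0%. In the real data 3332 genes were called lower and 3935 higher, which makes the cutoff less strict there. The recovery rates therefore do not carry over to the members. Members and lists were chosen with earlier results of these data known. Values by array are given for up to 3 passing members per class with the largest change in each direction, the extreme members, the germ cell genes, Slbp and Npat, and changes for up to 3 genes per direction in other lists. Alternatives covered variance options, scaling, weights, features, thresholds, the replicate block and each array left out.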

Additional observations from a re-analysis of the deposited data

How the results depend on the processing

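No member was called higher in any of the fits. The number of members that fell was 22 to 24 under limma's trend and robust options, quantile normalization, array medians set to 0, array weights and the other choices of feature, 17 at an adjusted p below 0.01, and 19 to 23 with 1 array left out. Requiring a change of at least 2-fold left 1 member, and adding shared histone probe sets gave 47 features. The median change of the members ran from -0.45 to -0.35 with 1 array left out. With the replicate block, 24 members fell and the median change was -0.40. The labels' numbers do not show that arrays were paired (correlations of same-numbered deviations 0.238, 0.007 and -0.02), and the block moved no count by more than 1.5 times. At 2-fold or more, the genes passing were 0 for histone mRNA processing, 2 for chaperones, 0 for variants, 2 for DNA replication, 3 for mitosis, 1 for B cells, 0 for erythroid cells and 4 for NK cells. At an adjusted p below 0.01, 8 mitosis, 4 B cell and 0 erythroid genes passed. B cell genes passing numbered 4 with array medians set to 0 and 4 to 7 with 1 array left out. Erythroid genes numbered 0 with quantile normalization, with array medians set to 0 and with every probe set as a feature, and 0 to 2 with 1 array left out. H3c7 changed sign, to -0.0149, without IL-18 replicate 3, the low end of a range that reached 0.0687 without IL-18 replicate 1. The causes were not tested. Centred values hold no signal over background, so dim genes could not be set aside.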
